A study of Mus musculus with 12 samples.

Results

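The regions described here are m6A peaks that the authors annotated to a 5' untranslated region (UTR) but whose 5' edge is not the annotated start of the gene. They are called off-start peaks below, and 5' UTR peaks whose 5' edge is the gene start are called at-start peaks. The rule used the deposited annotation, strand, peak edges and gene coordinates, and no measured value. It found 3309 of 36682 peaks (9.02%, 95% Wilson interval 8.73 to 9.32) in the wild-type (WT) list and 3741 of 41153 (9.09%, 8.82 to 9.37) in the Mettl3 knockout (KO) list. Off-start peaks made up 75.9% of the 4359 WT 5' UTR peaks and 76.6% of the 4887 KO ones, and lay on 2935 and 3301 genes. At-start peaks numbered 1050 and 1146.

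The study used BV2, an immortalised mouse microglial line, stimulated with lipopolysaccharide (LPS, a bacterial wall component) in all 12 libraries. There were 3 m6A immunoprecipitation (IP) and 3 input libraries of WT cells, and 3 and 3 of cells with a Mettl3 KO. The aim stated for the series is to find regulators downstream of METTL3 in inflamed microglia. The labels do not say whether the KO cells are 1 clone, nor whether replicates were separate cultures, and an unstimulated group was not analysed here. Each genotype is represented by 1 deposited peak list with the authors' log2 of IP over input for every peak, so no spread between replicates could be measured and no test was made. Intervals below are 95% intervals that cover the counting of peaks or genes only, and depth per library is unknown here. Of 12 microglia and macrophage markers, 11 carried a peak of some kind in each list. Of 12 neuroblastoma and neuron markers 1 did, of 5 astrocyte markers 0 and of 5 oligodendrocyte markers 1. Those counts bear on the protocol text, which names neuroblastoma cells where the sample labels name BV2.

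N6-methyladenosine (m6A) is placed on messenger RNA mainly by METTL3 with its partner METTL14, within a short sequence context written RRACH. In letters, that is A or G, A or G, A, C, then A, C or T. Most m6A lies near stop codons and in 3' UTRs, whereas 5' UTR m6A is less abundant and is known for its part in cap-independent translation and in the use of upstream open reading frames. A related mark, m6Am, sits on the first transcribed base beside the cap and is made by PCIF1; m6A antibodies bind it too. Many genes have several transcription start sites, so a 5' UTR can begin far downstream of the outermost annotated start of its gene.

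Short off-start peaks that had identical coordinates in both lists give examples of sequence. They do not stand for off-start peaks as a whole, whose median span was 1694 bases in WT. RefSeq start windows of GRCm38.p6 hold 250 bases before and 50 bases after a start. Of the identical pairs spanning at most 400 bases, 28 had 20 or more bases inside such a window, and 11 of these 28 held an RRACH 5-base match on the transcript strand there. The following matches come from 6 of them, each with 8 flanking bases on either side and the 5 bases in capitals. They were chosen after their values were seen, for genes whose function is known. The peaks of Hsp90b1, Ikbke, Smarca5 and Smpdl3b begin 3, 18, 5 and 6 bases after the gene start, and those of Ralb and Fen1 30 and 148 bases. The Fen1 match and the first Hsp90b1 match lie upstream of the RefSeq start of their window, at -73 and -12 bases from it.

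Hsp90b1, chr10:86705444-86705464, minus strand: tagtgggcGGACCgcgctgct
Hsp90b1, chr10:86705414-86705434, minus strand: aggagcttAGACTcgggattg
Ikbke, chr1:131279526-131279546, minus strand: agagcctgGGACTgggtaccc
Smarca5, chr8:80739420-80739440, minus strand: gcctctgaGAACCttccgttt
Smpdl3b, chr4:132757155-132757175, minus strand: ataacttgGAACActggaagc
Fen1, chr19:10203982-10204002, minus strand: ctgctatcGGACCtggtgggg
Ralb, chr1:119504734-119504754, minus strand: tgccgggcGGACAgcgggaac

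The peak of Hsp90b1, which encodes the endoplasmic reticulum chaperone GRP94, was listed at a log2 of 2.56 (WT) and 2.68 (KO) over the same 200 bases. That of Ikbke, a kinase of the innate antiviral response, stood at 0.81 in WT and 1.41 in KO over 100 bases. Both lists thus gave Hsp90b1 nearly the same level, and KO gave Ikbke the higher one. The chromatin remodeller Smarca5 was listed at 1.15 and 0.93, and Ralb, a small GTPase, at 0.82 and 0.73. Lower KO values were listed for Smpdl3b, a phosphodiesterase that dampens Toll-like receptor signalling (1.31 in WT, 0.74 in KO), and for Fen1, the flap endonuclease of DNA replication (1.20 and 0.54). Pairs with a printed match therefore lie on both sides of equality. A match is a description of letters in the window and marks no methylated base.

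The label "away from the gene start" holds only in part, because peak edges fall on a grid whose phase differs between strands. On the plus strand, 90.1% of WT and 90.2% of KO off-start peaks that began less than 500 bases after the gene start did so at an exact multiple of 25 bases. On the minus strand the share was 2.30% and 2.95%. As a result 376 WT and 439 KO minus-strand peaks began within 24 bases of the gene start and were counted as off-start, against 1 and 2 on the plus strand. They made up 20.9% (19.05 to 22.8) of WT and 21.8% (20.02 to 23.6) of KO minus-strand off-start peaks. At-start peaks took 31.2% of WT plus-strand 5' UTR peaks but 17.0% of minus-strand ones. With edges from 0 to 24 bases counted together, the WT shares were 31.2% and 34.3%, and the KO shares 29.9% and 35.1%. So 11.4% of WT and 11.8% of KO off-start peaks lie within 1 grid step of the gene start, and peak counts, medians, overlaps and gene differences were also computed without them. So were the shares of strong peaks and the identical pairs below, but not the partner classes or the gene lists.

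**Figure D1:**
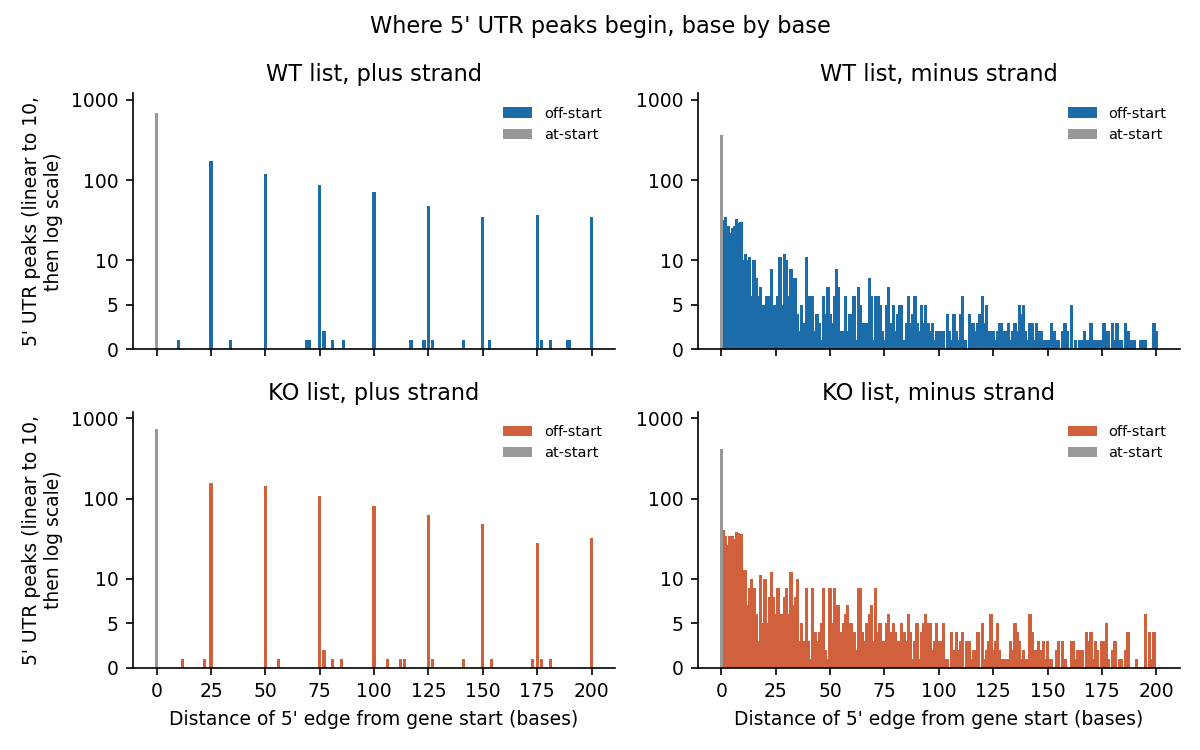
Number of 5' UTR peaks (y axis, linear to 10 and logarithmic above) by distance of the 5' edge from the annotated gene start in bases (x axis), for each list and strand up to 200 bases; grey bars are at-start peaks. Plus-strand edges stand at multiples of 25 bases, whereas minus-strand edges fill the first 24 bases with 376 WT and 439 KO peaks.

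Off-start peaks began a median of 249 bases (205 to 275) after the gene start in WT and 250 (225 to 276) in KO. Many lay close to it: 33.6% of WT and 33.3% of KO peaks began 1 to 99 bases downstream. A similar share lay far inside the gene, with 31.9% and 31.0% at 1000 bases or more. Only 50 WT and 49 KO peaks began upstream of the annotated start. The most distant began 772357 bases into Zfhx3 in WT and 849578 bases into it in KO; this large gene encodes a homeobox transcription factor. Most genes had a single such peak (88.9% of WT genes), and 325 WT and 378 KO genes had 2 or more, up to 4 and 5.

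Among peaks beginning downstream, the median enrichment was highest within 24 bases of the gene start and lower farther on in both lists. The median log2 of WT peaks was 1.004 (0.92 to 1.08) at 1 to 24 bases, 0.95 at 25 to 99, 0.92 from 100 to under 1000, 0.86 from 1000 to under 10000 and 0.87 (0.82 to 0.94) at 10000 or more. In KO it was 0.84 (0.79 to 0.88), 0.74, 0.75, 0.72 and 0.73 (0.68 to 0.77) over the same ranges. The nearest range held minus-strand peaks almost alone (376 of 377 in WT, 439 of 441 in KO), so distance and strand were not separated there. The share of peaks with a log2 of 2 or more did not fall likewise in WT, with 10.9% in the nearest range and 11.1% in the farthest. In KO those shares were 5.22% and 4.82%. The few peaks beginning upstream had the highest medians, 1.13 (0.97 to 1.36) in WT and 0.92 (0.69 to 1.27) in KO. At the boundary of the rule, the 32 WT peaks that began exactly 1 base after the gene start had a median of 0.82 (0.74 to 1.14), and minus-strand at-start peaks one of 1.09 (1.02 to 1.16). For KO those medians were 0.84 over 40 peaks and 0.81.

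Some distant off-start peaks began at or shortly after another known start of their gene. A RefSeq start was at hand for 855 WT and 956 KO off-start peaks lying 1000 or more bases downstream. Of these, 13.8% (118; 11.7 to 16.3) in WT and 13.9% (133; 11.9 to 16.3) in KO began 0 to 99 bases after a RefSeq start of the gene. The same held for 0.324% of WT and 0.215% of KO coding-exon peaks as far downstream, and for 0 of 1605 WT and 1 of 1548 KO intronic ones. The 5' UTR annotation itself depends on transcript starts, so the contrast with coding exons is partly built into the classes. Off-start peaks under 1000 bases downstream did so in 44.2% and 42.1%, and at-start peaks in 53.9% and 54.9%. Fewer of the distant off-start peaks began within 1 grid step of a RefSeq start (0 to 24 bases after it), 4.44% (38) in WT and 4.39% (42) in KO.

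The following examples of such internal-start peaks, within 24 bases of a RefSeq start, were named after their values were seen. In Lats2, a kinase of the Hippo pathway, a peak began 0 bases after a RefSeq start that lies 12265 bases into the gene in WT, with a log2 of 3.06. The KO peak began 16 bases further on with a log2 of 1.79. Marf1, a ribonuclease known from oocytes, had a peak 15 bases after such a start in both lists, at 1.46 in WT and 1.32 in KO. The WT list alone held one for Egr2, a zinc-finger transcription factor, at 1.72. Ikbkg, which encodes the NEMO subunit of the IKK complex, had one in each list at different starts, 31328 bases into the gene at 1.45 in WT and 36047 bases into it at 0.44 in KO. The KO list alone held one for the inflammasome sensor Nlrp3, at 1.06. For Egr2 and Nlrp3, "alone" refers only to edges within 24 bases of a RefSeq start. The other list can hold an overlapping peak with another edge. Whether the lists differ here because another start was used was not tested.

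The letters next to the starts were much alike in all 5' UTR peaks. In the 50 bases after RefSeq starts that an off-start peak covered, RRACH occurred on the transcript strand in 40.0% of 783 WT starts (36.6 to 43.4) and 40.2% of 884 KO starts. The share was 36.1% and 35.4% for starts under at-start peaks. For genes with an off-start peak, starts whose 50 bases no peak of any class covered in full held RRACH in 36.5% and 36.9%. Starts covered only in part are among these. All 32851 starts of the table held RRACH in 44.6%, at a lower GC content of 56.7% against 63.7% under WT off-start peaks. The narrower GGAC, 4 letters that overlap RRACH, occurred in 21.5% of starts under WT and 21.9% under KO off-start peaks, and in 18.9% of all starts. An A stood at the start base in 31.2% and 30.0%, against 34.4% of all starts. Peaks lying wholly in a start window held RRACH in 22 of 30 cases in WT and 27 of 37 in KO. At the same places and lengths, windows of all starts held it in 79.5% and 76.6% on average.

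Off-start peaks were stronger than the average peak of their list and weaker than at-start peaks. Their median log2 was 0.92 (0.90 to 0.94) in WT and 0.75 (0.74 to 0.76) in KO, from 0.36 to 5.74 and from 0.24 to 5.91. At-start peaks had medians of 1.06 (1.03 to 1.12) and 0.80 (0.78 to 0.83), 3' UTR peaks of 0.86 and 0.76, and coding-exon peaks of 0.67 and 0.55. Strong peaks, with a log2 of 2 or more (4-fold), were 10.9% (362 peaks; 9.92 to 12.05) of WT off-start peaks, against 11.7% of all WT peaks. In KO they were 4.49% (168 peaks; 3.87 to 5.20), against 3.93% of all KO peaks. Without peaks within 24 bases of the gene start the shares were 10.9% and 4.37%. The share of strong off-start peaks is thus close to that of each list as a whole, and lower in KO as in the whole list.

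**Figure D2:**
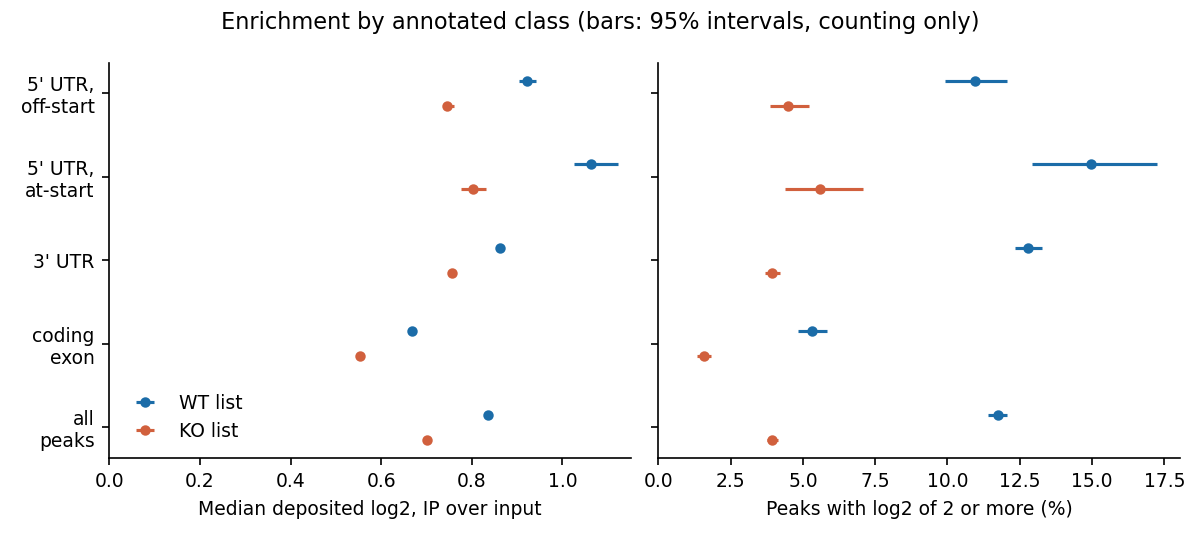
Median deposited log2 of IP over input (left) and percent of peaks with a log2 of 2 or more (right) by annotated class in the WT and KO lists; points are values over peaks and bars 95% intervals that cover counting only. Off-start 5' UTR peaks stand at medians of 0.92 and 0.75, between at-start 5' UTR peaks (1.06 and 0.80) and all peaks (0.83 and 0.70) in WT and KO.

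The lists differed more in strong off-start peaks among long spans than among short ones. A span counts the introns that a peak crosses, and off-start peaks spanned a median of 1694 bases in WT and 1512 in KO, against 573 and 550 for all peaks. More than 1000 bases were spanned by 56.6% and 54.9%, and more than 5000 by 33.5% and 33.0%. The longest were 469917 bases over Fat3, a giant cadherin gene, in WT and 253966 over Zfhx3 in KO. Among spans over 1000 bases, 14.9% (13.4 to 16.6) of WT and 4.58% (3.76 to 5.57) of KO peaks reached a log2 of 2. Among spans of at most 1000 bases, 5.78% (4.69 to 7.11) and 4.38% (3.51 to 5.47) did, intervals that overlap. At 200 bases or less the shares were 2.06% and 2.29%. Without peaks within 24 bases of the gene start, the shares were 14.8% and 4.503% among long spans and 5.83% and 4.21% among short ones. The median log2 differed in short peaks too, 0.87 against 0.73. Shares by span are not given here for the other classes, so whether the pattern is particular to off-start peaks was not tested.

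**Figure D3:**
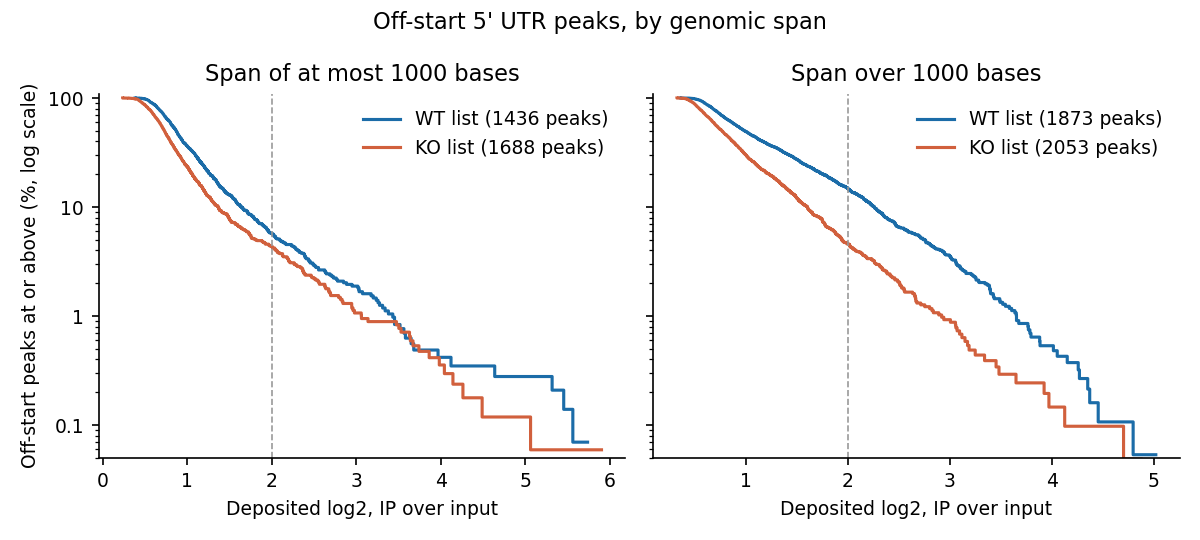
Percent of off-start 5' UTR peaks at or above each deposited log2 (y axis on a log scale) for spans of at most 1000 bases (left) and over 1000 bases (right); lines are the WT and KO lists and the dashed line marks a log2 of 2. At that line the curves stand at 5.78% and 4.38% on the left and at 14.9% and 4.58% on the right.

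Genes with an off-start peak carried a 3' UTR or coding-exon peak more often than all genes with a peak, and an at-start peak in a smaller share. These contrasts are partly built into the classes. All genes with a peak include noncoding ones, and each 5' UTR peak counts as either off-start or at-start. A 3' UTR peak was listed for 94.2% of WT and 96.0% of KO genes with an off-start peak, against 79.8% and 81.4% of all genes with a peak. A coding-exon peak was listed for 42.8% and 49.9%, against 33.4% and 41.0% of all genes. An at-start peak was listed for 2.83% and 3.45%, against 7.85% and 8.79%. For 3.95% and 2.58% the off-start peak was the gene's only mark. Where both were present, the strongest off-start peak lay below the strongest 3' UTR peak in 60.4% of 2765 WT genes and 66.2% of 3168 KO genes. The median gap was -0.16 (-0.19 to -0.13) and -0.17 (-0.19 to -0.15). Genes had more 3' UTR than off-start peaks to take the strongest from: 19450 on 10673 genes in WT, against 3309 on 2935. This comparison therefore leans toward the 3' UTR. Peak by peak, the off-start and 3' UTR medians were 0.92 and 0.86 in WT, and 0.75 and 0.76 in KO. A median 8.965% and 8.98% of the gene's genomic span was covered by an off-start peak, and 10.9% and 10.6% of these peaks covered 50% or more.

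The comparison between genotypes first asked whether the same places were marked. Of WT off-start peaks, 75.04% (73.5 to 76.5) overlapped a KO peak of any class on the same strand. The 25.0% without a partner compares with 22.8% of all WT peaks. Of KO off-start peaks, 70.7% (69.2 to 72.1) overlapped a WT peak, leaving 29.3%, against 27.1% of all KO peaks. Both shares without a partner are near those of the whole lists. At-start peaks overlapped in 85.9% and 80.7%, and 3' UTR peaks in 83.9% and 81.5%. Off-start peaks without a partner were shorter, with a median span of 450 bases in each list against 2489 and 2245 with one, and weaker, with a median log2 of 0.86 and 0.65 against 0.96 and 0.81. Of strong off-start peaks, 90.3% (86.9 to 93.0) in WT and 92.3% (87.2 to 95.4) in KO had a partner. For all strong peaks the shares were 83.7% and 91.5%.

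Partners often carried another class or other edges. The partner of a WT off-start peak was itself off-start in 82.1% of 2483 cases, at-start in 5.88%, a coding-exon peak in 7.29% and a 3' UTR peak in 3.79%. For the 2644 KO peaks with a partner the shares were 78.7%, 7.07%, 6.35% and 7.03%. Overlap with an off-start peak of the other list was found for 63.1% of WT and 57.0% of KO off-start peaks. Among the 2089 WT peaks with an off-start KO partner, the 5' edge was the same in 36.1% (34.0 to 38.1), the 3' edge in 21.5% (19.8 to 23.4) and both in 9.81%. Within 100 bases these were 76.6% and 54.7%. The 5' edge was thus shared more often than the 3' edge. Both peaks of a pair were chosen for their 5' UTR annotation, which limits 5' edges more than 3' edges, so this contrast can be partly built into the choice. The 5' edge lay further downstream in KO in 33.1% and further upstream in 30.9%. The 3' edge lay further downstream in KO in 42.1% (40.0 to 44.3) and further upstream in 36.3% (34.3 to 38.4). The span was longer in KO in 46.5% of these pairs and shorter in 41.5%, although the median span of all off-start peaks was shorter in KO.

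Identical coordinates in both lists gave the closest comparison of levels. There were 206 such off-start pairs, with a median log2 of 1.05 in WT and 0.98 in KO. The KO value was lower in 67.5% (60.8 to 73.5), and the median difference of KO minus WT was -0.090 (-0.11 to -0.064). All 2916 identical pairs had a median of -0.057, 3' UTR pairs one of -0.037 and the 150 at-start pairs one of -0.12. The KO value was lower by 1 or more in 4.37% (9 pairs), against 3.77% of all identical pairs, and higher by 1 or more in 0 of 206, which allows up to 1.83%, against 0.377%. Pairs 1 to 24 bases from the gene start (62, median -0.093) and pairs 25 bases or more downstream (140, median -0.092) differed alike. The median was -0.083 for the 98 pairs of at most 1000 bases and -0.10 for the 108 longer ones. Of 4 ranges of mean log2, the gap was largest at 1.5 or more, at -0.30 (-0.58 to -0.089) over 52 pairs, where all identical pairs of that strength had -0.54 (-0.58 to -0.45).

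**Figure D4:**
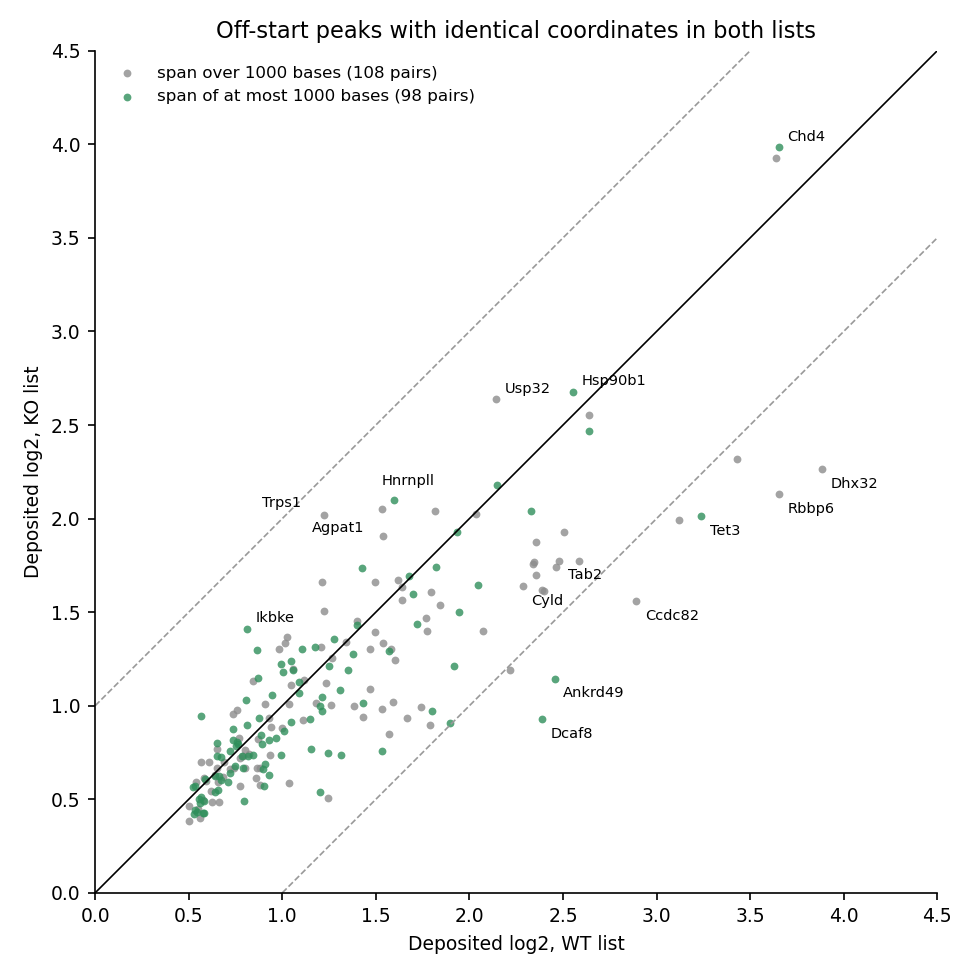
Deposited log2 in the KO list against that in the WT list for the 206 off-start 5' UTR peaks with identical coordinates; green points span at most 1000 bases, grey points more, the solid line is equality and the dashed lines a difference of 1. Of the points, 67.5% lie below equality, 9 lie below the lower dashed line and 0 above the upper one.

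The identical pairs with the lowest difference had the KO value lower by more than 1. Dhx32, a DEAH-box RNA helicase gene, had 3.89 in WT and 2.26 in KO over 6239 bases that begin 47 bases after the gene start (chromosome 7, 133776441 to 133782679, minus strand). Rbbp6, a ubiquitin ligase that also binds messenger RNA processing factors, had 3.66 and 2.13 over 13456 bases. Dcaf8, a substrate receptor of CUL4 ubiquitin ligases, had 2.39 and 0.93 over 375 bases from 50 bases after its start. Ccdc82 stood at 2.89 and 1.56, and Ankrd49 at 2.46 and 1.14. Each is at least 2-fold lower in the KO list, and Dcaf8 and Ankrd49 (575 bases) are short peaks. At the other end, Trps1, a GATA-type repressor, had 1.22 in WT and 2.02 in KO over 1315 bases beginning 95 bases after its start. A second, longer Trps1 peak stood at 3.03 in WT and 1.95 in KO with other edges, so the order of the lists was opposite in the 2 peaks of this gene. Higher KO values were also listed for Ikbke (above), the lipid acyltransferase Agpat1 (1.53 and 2.05), the splicing regulator Hnrnpll (1.60 and 2.10) and the deubiquitinase Usp32 (2.14 and 2.64).

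Genes were compared by their strongest off-start peak. Of 4239 genes with an off-start peak in either list, 1997 had one in both, which is 68.0% of the WT and 60.5% of the KO genes. The 2 strongest peaks of a gene overlapped in 89.5% (1788 genes) and lay apart in the others. The median difference over these 1997 genes was -0.15 (-0.17 to -0.13), with the KO value lower in 72.0%. Over the 1788 genes alone it was -0.15, with 73.0% lower. Over all 1997 genes it was lower by 1 or more in 5.91% (4.96 to 7.03), against 9.54% of all genes with a peak in both lists, and higher by 1 or more in 0.501%, against 0.714%. The median over those 12323 genes, taking each gene's strongest peak of any class, was -0.25. Relative to it, the off-start median turned to 0.096 (0.082 to 0.11), so the sign for genes depends on this reference. The reference is not like for like, nor are the 9.54% and 0.714%, because they take peaks of every class. Centred on all identical pairs, the off-start identical pairs stayed negative, at -0.034 (-0.058 to -0.0071). In the 1880 genes with an off-start and a 3' UTR peak in both lists, the off-start difference was -0.15 and the 3' UTR difference -0.20. Within a gene the off-start difference lay above the 3' UTR one by a median of 0.043 (0.014 to 0.067), in 53.5% of genes (51.2 to 55.7). The strongest 3' UTR peak is again taken from more peaks than the strongest off-start one. Identical pairs had the opposite order, with medians of -0.090 for off-start and -0.037 for 3' UTR pairs.

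An off-start peak in 1 list only was found for 938 genes in WT and 1304 in KO. With peaks of at least 2-fold alone the counts were 723 and 336, so which list had more depends on that limit. The strongest off-start peaks of these genes had medians of 0.87 (WT) and 0.69 (KO), against 1.01 and 0.85 in genes with one in both lists. An at-start peak in the other list was found for 15.6% and 14.5% of them, and in 36.8% and 33.0% a peak of the other list overlapped. The other list had no peak of the gene at all in 6.40% (60 of 938 genes) and 2.30% (30 of 1304). Of all genes with a peak, 7.83% of those in WT and 5.43% of those in KO had none in the other list. The bases differ, because an off-start gene without any peak in the other list always falls among the genes in 1 list only. Taken over all 2935 WT and 3301 KO genes with an off-start peak, these 60 and 30 genes are a smaller share than that of all genes. A peak also needs enough RNA: input levels were not analysed, and in these bulk samples fewer cells with a transcript and less of it per cell cannot be told apart.

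The study centres on Mettl3 and Batf. Mettl3 had no off-start peak in WT and a weak one in KO, 400 bases from 51 bases after its start (chromosome 14, 52304678 to 52305077, minus strand) with a log2 of 0.69 and a deposited adjusted p of 0.00087. Of any class, Mettl3 had 3 peaks in WT and 6 in KO, the strongest in the 3' UTR at 1.57 and 2.07. These values describe antibody enrichment, not the amount of Mettl3 RNA, and check neither the knockout nor the labels. Batf, the AP-1 family factor that the series singles out, had an off-start peak in WT only. It spanned 2844 bases from 25 bases after the gene start (chromosome 12, 85686694 to 85689537, plus strand), with a log2 of 1.88. The KO list held 0 Batf peaks of any class. Batf is thus among the 6.40% of WT-only genes with no KO peak at all.

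The gene lists that follow are read against values over all genes. Of the 4239 genes with an off-start peak in either list, 2935 had one in WT and 3301 in KO. There were 938 genes with one in WT only and 1304 with one in KO only. Counts by list are small in each gene list below and were not tested against these. Of all 14078 genes with a peak in either list, 30.1% had an off-start peak, and the KO value was below the WT value in 72.0% of the 1997 genes marked so in both lists (median difference -0.15). As in the comparison above, each gene is given by its strongest off-start peak, which need not lie at the same place in both lists. Among 12 genes of the m6A writers, 7 had an off-start peak in either list, 3 in WT, 5 in KO and 1 in both. Rbm15, an adaptor that guides the METTL3 complex, carried a WT peak of 3.10 beginning 248 bases after the gene start, and the KO peak of 2.05 at nearly the same place reached the start itself. Wtap, the regulatory partner of METTL3, had a 100-base KO peak at 1.04, and the separate methyltransferase Mettl16 a 200-base one at 1.01. Pcif1, the cap m6Am methyltransferase, had one in WT at 0.71 beginning 3738 bases into the gene (named after its values were seen). Of 16 erasers and readers, 8 had an off-start peak, all 8 in KO and 5 in both, with 4 of the 5 lower in KO and a median difference of -0.15. Igf2bp2 (0.89 and 0.64) and Igf2bp3 (0.999 and 0.62), which stabilise bound messages, were lower in KO. The reader Hnrnpa2b1 was higher, at 0.95 in WT and 1.50 in KO, both beginning 9 bases after the gene start.

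Genes known for translation through their 5' UTRs had off-start peaks on both sides of equality. Of 27 genes with upstream open reading frames or roles in the integrated stress response, 9 had one, and the median difference of the 4 with one in both lists was 0.0073. Atf4, the stress transcription factor whose upstream reading frames control its translation, had a 100-base peak in KO only, at 1.33 and 175 bases after its start. Xbp1, the unfolded protein response factor, had one in KO only at 1.20, and Ppp1r15a (GADD34, named after its values were seen) had 2 in KO only, at 1.02 and 0.74. Eif2ak3, the kinase PERK, had one in WT only at 1.19. Of 33 translation initiation genes, 11 had an off-start peak and 5 had one in both lists, 3 lower and 2 higher in KO. Eif4e, the cap-binding factor, stood at 1.52 and 0.84, Eif5b at 1.41 and 1.23, and Eif4g2, which serves cap-independent initiation, at 1.12 and 1.18. Of 20 heat shock genes, 5 had one: Hsp90b1 in both lists, and 4 in KO only. The latter included the constitutive chaperone Hspa8 (1.17) and the mitochondrial co-chaperonin Hspe1 (0.80).

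In the LPS signalling pathway, 14 of 35 genes from the TLR4 receptor to NF-kB had an off-start peak, 7 in both lists, 1 in WT only and 6 in KO only. Of the 7, 4 were lower and 3 higher in KO, with a median difference of -0.60. In Ikbkg and Tab2 the peaks compared lie apart. Without these, 2 were lower and 3 higher, and the median difference was 0.094, so the direction of this list depends on them. Cyld, a deubiquitinase that restrains NF-kB, had the same 13847 bases marked at 2.29 in WT and 1.64 in KO. Ikbkg stood at 1.45 and 0.44, but its KO peak began 36047 bases into the gene and its WT peak 31328 bases. Tab2, which links TRAF6 to the kinase TAK1, shows how the class boundary acts. Its WT peak of 3.26 over 32136 bases began 10 bases after the gene start and counts as off-start, and its KO peak of 3.13 over 32146 bases began at the start and does not. A further Tab2 peak with identical coordinates stood at 2.48 and 1.78. The count and the median of -0.60 set 3.26 against 1.78 for this gene.

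Of 33 cytokine and mediator genes 5 had such a peak, all 5 in KO and 3 in both lists. Tgfb1, an anti-inflammatory cytokine gene, stood at 1.90 and 0.94 by its strongest off-start peak. The peaks that begin 150 bases after its start stood at 1.43 and 0.94. Il23a, the p19 subunit of interleukin 23, had 1.12 and 0.99. Nos2, the inducible nitric oxide synthase, had a 3988-base KO peak of 1.05 beginning 50 bases after the gene start, where WT had a 150-base at-start peak of 0.66. Of 39 interferon response genes, 12 had an off-start peak and all 5 with one in both lists were lower in KO, with a median difference of -0.21. Among them were the RNA-editing enzyme gene Adar (2.23 and 1.52), Ifit3 (1.05 and 0.84), an antiviral effector, and Irf9 (1.01 and 0.57), the DNA-binding subunit of ISGF3. For Irf9 the stronger WT peak began upstream of the gene start, and the peak that both lists share stood at 0.68 and 0.57. Without Irf9, whose strongest peaks lie apart, the median difference was -0.12 over 4 genes.

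AP-1 and chromatin genes had higher off-start medians than the other gene lists, apart from the WT value of heat shock genes, which is Hsp90b1 alone. Of 21 AP-1, BATF and partner genes, 8 had one in WT and 6 in KO, with a median log2 of 1.64 and 1.32 and a median difference of -0.027 over the 6 with one in both. Fosb, an AP-1 subunit, carried a 400-base WT peak 68 bases after its start at 5.32 and none in KO, where its strongest peak lay in a coding exon at 3.79. Batf3 stood at 2.62 and 1.87. Maf, a bZIP factor of macrophages, had 3.25 over 1275 bases in WT and 3.63 over 200 bases in KO. Of 33 chromatin regulators, 19 had an off-start peak, all 19 in WT and 17 in both lists, with medians of 1.21 and 1.16, 11 lower and 6 higher in KO and a median difference of -0.11. In 13 of the 17 the peaks overlap, with 8 lower and 5 higher and the same median. Chd4, the NuRD remodeller, had the same 633 bases at 3.65 in WT and 3.99 in KO. Nsd1, a histone H3 lysine methyltransferase, stood at 3.68 and 3.18. Tet3, a DNA demethylation enzyme, had 400 identical bases far inside the gene at 3.24 in WT and 2.01 in KO. Its longer first peak was at-start in WT (3.99) and began 45 bases after the start in KO (3.07).

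Off-start peaks of microglia and phagocyte genes were at medians of 0.89 (WT) and 0.58 (KO). Of 23 genes 7 had one, and all 3 with one in both lists were lower in KO, with a median difference of -0.075, which is smaller than that of all genes. Ptprc, which encodes CD45, stood at 1.16 and 0.54, Aif1 (IBA1) at 1.03 and 0.98, and Trem2, a lipid-sensing receptor, at 0.74 and 0.66. The peaks of Aif1 and Trem2 are of nearly equal level in both lists. Across the 33 genes drawn from the gene lists, 23 had an off-start peak in both, of which 18 were lower in KO and 5 higher. Among the 18 whose peaks overlap, 13 were lower and 5 higher. The genes were taken for their strength in either list and not at random.

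**Figure D5:**
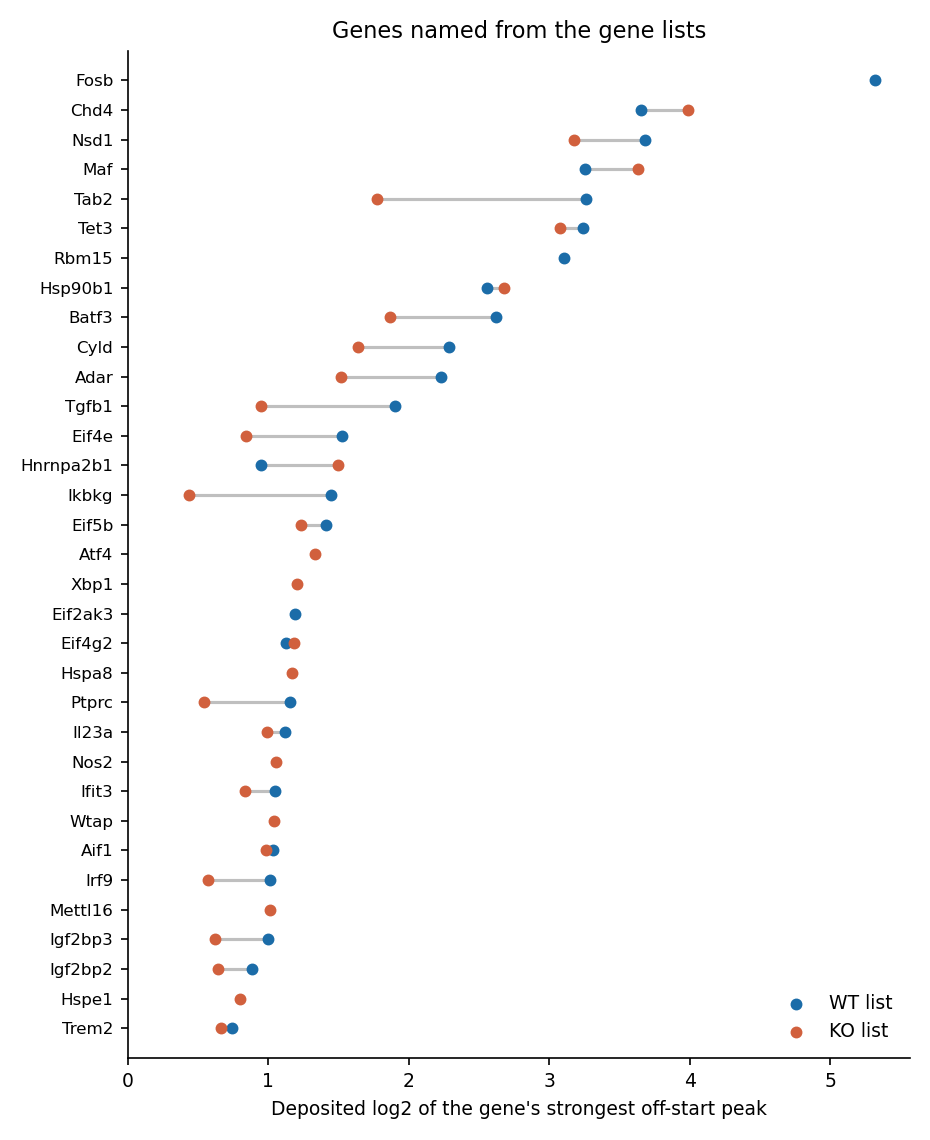
Deposited log2 of the strongest off-start 5' UTR peak (x axis) of the 33 genes named from the gene lists, in the WT and KO lists; a grey line joins genes with an off-start peak in both. Of the 23 joined genes 18 are lower in KO; for Ikbkg, Irf9, Tab2, Tet3 and Tgfb1 the joined points are peaks that do not overlap, and of the other 18 genes 13 are lower in KO.

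Kctd1, a BTB-domain gene, led the off-start peaks of both lists and was the only named gene among the 8 strongest of each, at 5.74 in WT and 5.91 in KO over 775 and 725 bases that overlap. In WT it was followed by the RNA-binding protein gene Hnrnpdl, with 5.57 over 350 bases, whose KO peak spread over 675 bases at 1.88. Macf1, a cytoskeletal crosslinker, had a 375-base WT peak at 5.46, and its strongest KO off-start peak stood at 1.47 elsewhere in the gene. Its strongest KO peak of any class, in a coding exon, stood at 4.14. Lamb3, a laminin chain, had 5.02 over 93276 bases in WT and 3.15 over 49013 bases in KO. Cntd1 (4.80), the galanin receptor Galr2 (4.64) and the calpain subunit Capns1 (4.46) had no off-start peak in KO. Their strongest KO peaks of other classes stood at 1.60, 1.72 and 1.49. In these last 3 genes the WT off-start peak exceeded every KO peak of the gene by more than 2.

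In the KO list Kctd1 was followed by Rarg, the retinoic acid receptor gamma, with 5.07 over 800 bases against 1.80 over 4775 bases in WT. Zbtb7b, a transcription factor of T-cell lineage choice, had 4.88 in KO and 4.35 in WT, with the same 3' edge. Zfp974 had 4.70 and 3.59 in the WT list, and the potassium channel subunit Kcnj11 4.15 and 2.95. Stau2, a double-stranded RNA-binding protein, had 4.13 in KO and 3.13 in WT over almost the same 31479 and 31454 bases. For Sgpl1, the sphingosine phosphate lyase, and Add1, a membrane skeleton protein, the strong KO peaks (4.49 and 4.27) had no off-start WT counterpart at that place, and their WT off-start peaks stood at 1.27 and 0.67. High KO values therefore occurred both in peaks shared with WT and in peaks called at a place of their own.

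Of the 5 strongest genes with an off-start peak in KO only, 3 had an at-start WT peak, against 14.5% of all such genes. Bhlha9 had 4.05 in KO from 75 bases after its start, inside a 300-base at-start WT peak of 6.77. Stx3, a syntaxin of membrane fusion, had 3.87 in KO from 11 bases after its start, and 3.04 in WT from the start itself. Fbxw7, the substrate receptor that marks MYC and cyclin E for degradation, had 3.10 in KO over 61467 bases, within a WT at-start peak of 110386 bases at 3.95. Gpr157 and the protocadherin gene Pcdhb22, both at 3.06, had no 5' UTR peak in WT, where their strongest peaks stood at 3.36 in the 3' UTR and 3.96 in a coding exon. In the other direction, St3gal2, a sialyltransferase, had a WT-only off-start peak of 4.26 over 28905 bases, and its at-start peak with identical edges stood at 4.46 in WT and 3.16 in KO.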

How the data were processed

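One peak list of each genotype was used. Per the file headers, each deposited peak carries the authors' log2 enrichment in the IP relative to input. The deposited p-value and its adjusted form stand beside it, with the region and gene annotation. Among the tools in the submitters' processing notes are HISAT2, HOMER, StringTie, edgeR, FastQC and fastp. What the sources used here do not give is the peak caller, the build, each tool's role and whether replicates were pooled. Per the labels' protocols, poly(A) RNA was fragmented and pulled down with an m6A antibody, and libraries kept the strand.

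Deposited starts were counted from 0, since 1133 WT and 1153 KO plus-strand peaks began at their gene's start once 1 was added; positions are printed from 1. A RefSeq table of GRCm38.p6 held 4203 of the genes with an off-start peak by symbol, and all 4203 overlapped their position there, and RefSeq sequences were read on that build. RefSeq starts were matched by symbol, chromosome and strand for 2667 WT and 3054 KO off-start peaks.

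Peaks overlap where they share 1 or more bases and the strand. Shares carry Wilson intervals and medians order-statistic intervals, both at 95%. Differences are KO minus WT. Each list has its own pull-down efficiency and scaling, so differences describe the lists and not the genotypes. The regions, gene lists and comparisons were chosen with earlier results of these data known. Named genes follow a rule: the 8 strongest off-start peaks of each list, the 5 lowest and 5 highest differences among identical pairs, the 5 strongest peaks of genes with one in that list only, the 3 strongest genes of each gene list, Mettl3 and Batf. Genes named by a clone or predicted-gene symbol were skipped, and others are marked where they appear. Values were computed with SciPy 1.17.1, numpy 2.4.6 and pandas 2.3.3 in Python 3.11.15 and drawn with matplotlib 3.10.9, and the steps were tested on simulated data. Expression and differential m6A were not analysed here.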

Additional observations from a re-analysis of the deposited data

How the results depend on the processing

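Alternatives were compared for 10 results, and 44 of 73 values stayed within the interval or within 1.5 times of the value given. The median difference stayed negative for identical pairs under all alternatives, and for genes under all except centring. Centring, chosen after seeing the data, gave -0.034 for identical pairs. It reversed the gene difference to 0.096, where the reference was each gene's strongest peak of any class. Keeping peaks of at least 2-fold left 1450 WT and 1020 KO off-start peaks with median log2 of 1.47 and 1.35, of which 52.6% and 76.7% overlapped; the gene difference became -0.29, and genes with an off-start peak in WT only became 723 and those in KO only 336, which turns round the order of the lists. Spans of at most 1000 bases left 1436 and 1688 peaks with medians of 0.87 and 0.73, overlaps of 65.2% and 61.6% and a gene difference of -0.12. A distance of at least 100 bases left 2182 and 2484 peaks with medians of 0.90 and 0.74. An adjusted p of at most 0.001 gave medians of 1.01 and 0.80 and a KO overlap of 74.4%. A reciprocal overlap of 50% gave 53.2% and 47.5%, and overlap with an off-start peak 63.1% and 57.0%. Pairs by reciprocal overlap gave -0.14 over 1530 pairs. Restricting genes to those whose strongest peaks overlap, chosen after seeing the data, kept the difference at -0.15. A distance of at least 25 bases, also chosen after seeing the data, a 5' edge inside the gene, and strand ignored moved none of the values they were run for beyond those bounds, nor did the mean over a gene's peaks or, for genes in 1 list, counting every 5' UTR peak. No paired analysis was possible because the lists carry no per-library values, and for the same reason no replicate could be left out.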
